A study of Mus musculus with 4 samples.

Results

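The integrin alpha chains studied here are the products of 10 mouse genes, Itga1, Itga2, Itga3, Itga4, Itga5, Itga6, Itga7, Itga9, Itga11 and Itgav, taken as every non-control probe whose accession maps to one of these symbols. They were measured by 19 of 41174 probes, and 9 of the 10 genes, with 13 probes, were bright enough to test. The samples were microvascular smooth muscle cells of male C57BL6 Rap1a knockout mice that carried a shuttle vector, either empty or named RapCA, a name the labels do not spell out. Cells of both kinds were grown in 10% serum, received virus overnight without serum at plating and recovered for 48 h in 0.5% serum. Each of 4 arrays held 1 RNA of each kind, with the empty vector always in the Cy5 channel and RapCA always in the Cy3 channel, so dye and vector cannot be told apart. The submitters list them as biological replicates, and nothing given here says that cultures or animals were separate, so p-values measure the spread between these arrays, which may be technical.

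Integrins are receptors built of an alpha and a beta chain that span the membrane and tie the extracellular matrix to the actin cytoskeleton. The alpha chain largely sets the ligand. Chains of the collagen group, laminin group and a group that reads the short peptide motif RGD in fibronectin or vitronectin are told apart, and alpha4 and alpha9 form a further group that binds cell surface and matrix ligands such as VCAM-1 and tenascin. Rap1 GTPases are known to raise integrin affinity from inside the cell, through talin at the beta chain tail. The study compared cells of the same knockout with and without the RapCA vector, which its title calls a rescue. The comparison below asks which alpha chain transcripts differed between the channels.

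The probe of Rap1a, the gene knocked out, did not follow the labels. It had log2 levels of 11.58, 11.74, 11.88 and 11.52 on replicates 1 to 4 in the channel labelled RapCA and 12.04, 12.76, 13.18 and 12.99 in the channel labelled vector. The groups did not overlap, and the log2 ratio was -1.06 ± 0.44 (SD, n = 4; limma adjusted p = 0.00204). The position of this probe was not set here against the deletion or the vector's insert, and it may not check the labels. Directions below follow the dyes as labelled; swapped labels would turn every sign. Replicate 1 stood apart, with correlations of its ratios across probes of 0.69 to 0.78 with the remaining arrays, which correlated at 0.93 to 0.98 with each other. Probes well above background made up 57.7% to 62.8% in Cy3 and 60.1% to 61.9% in Cy5, except for 51.3% in Cy5 on replicate 1.

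Of the 9 alpha chains tested, 5 had higher levels in the channel labelled RapCA (Itga11, Itga7, Itgav, Itga9 and Itga1), 2 were lower (Itga4 and Itga6), and Itga3 and Itga5 did not pass. The range ran from Itga11 at a log2 ratio of 3.90, a 14.9-fold difference, to Itga4 at -1.18, a 2.27-fold difference. A gene is given by its brightest probe, and a call is an adjusted p under 0.05 in limma's test of the mean log2 ratio, adjusted over all probes. In the same fit 53.9% of the 12387 genes tested were called, 28.9% higher and 24.9% lower, so that 7 of 9 is to be read against about that share. The median log2 ratio of the 9 chains was 0.90, beside 0.02 for all genes. By probe, 7 of the 13 tested were higher and 2 lower, where 49.6% of all probes were called, 26.4% higher and 23.2% lower. Without replicate 1 the counts were again 5 higher and 2 lower, but 71.1% of all genes were then called, so that 7 of 9 lies close to the share over all genes. With a filter on both channels Itga1 dropped out, and 4 of 8 chains were higher and 2 lower. There 28.3% of all genes were higher and 25.1% lower. In total RNA of a culture, fewer cells that express a chain and less RNA per cell cannot be told apart.

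**Figure D1:**
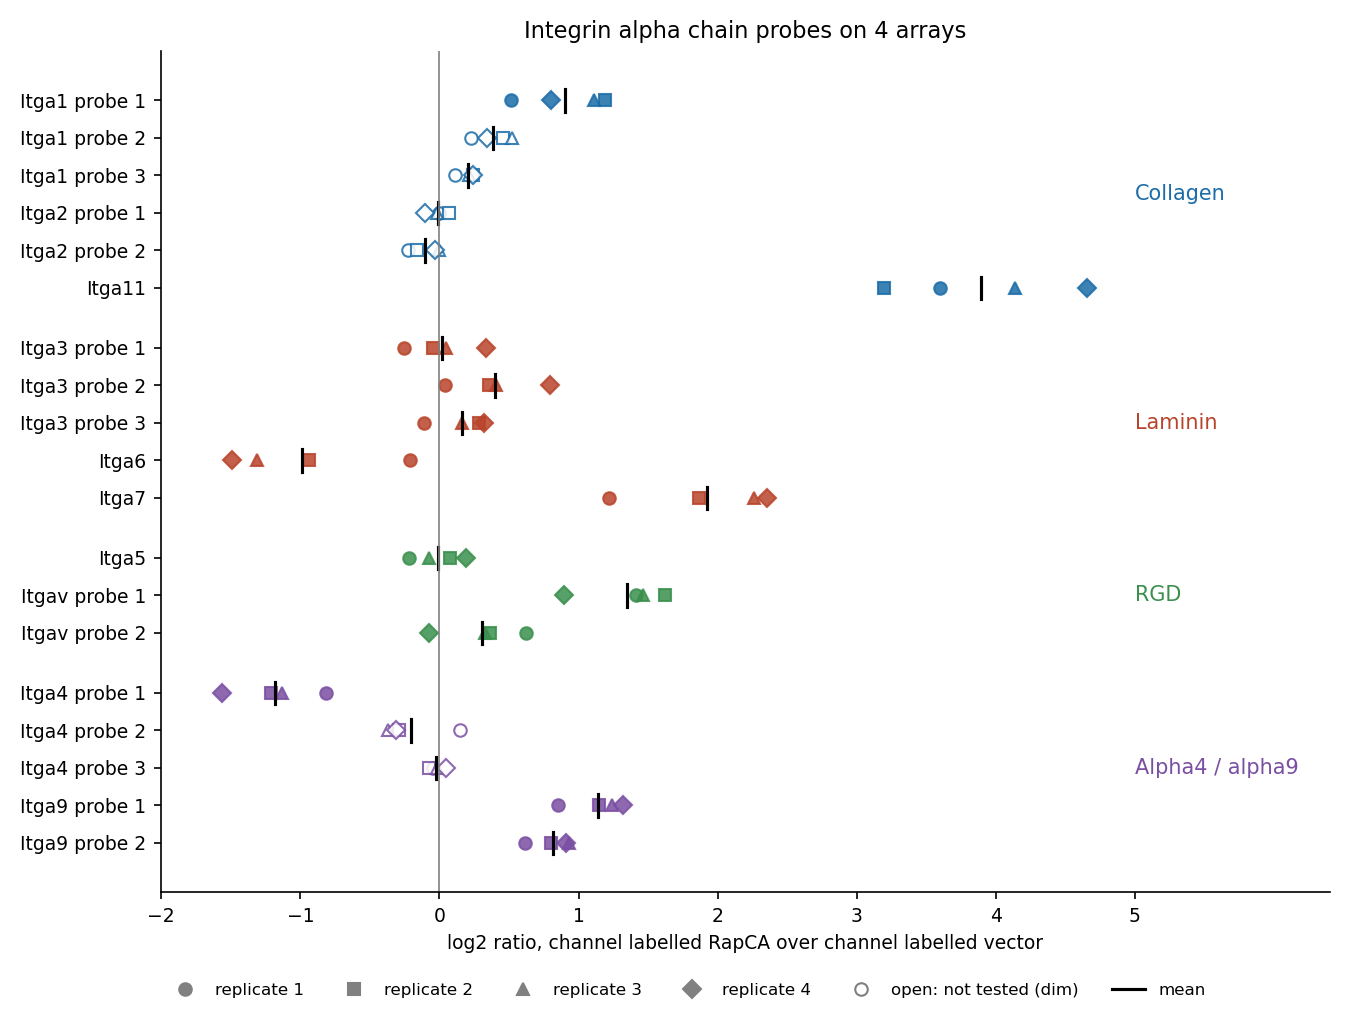
Log2 ratio, RapCA-labelled over vector-labelled channel (horizontal axis), for each of 19 probes (rows, brightest probe of a gene first) on 4 arrays (symbols), coloured by ligand group; black bars are means and open symbols mark probes too dim to test. Itga11 lies between 3.19 and 4.66 on every array, and Itga4 and Itga6 lie below 0 on every array with their brightest probe. Itga5 and the brightest Itga3 probe straddle 0, and the second Itga3 probe lies above 0 on every array.

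Both collagen receptor chains that could be tested had higher levels under the RapCA label, but Itga1 passed the brightness filter only through that channel. Itga11 had the highest ratio of all 9 chains. Itga11, the alpha chain of a receptor for fibrillar collagen found on mesenchymal cells, had log2 levels of 12.91, 12.50, 12.95 and 13.24 on replicates 1 to 4 in the channel labelled RapCA. In the channel labelled vector they were 9.32, 9.30, 8.81 and 8.59. All 4 values of the first channel lay more than 3 log2 units above all 4 of the second. The mean log2 ratio was 3.90 ± 0.64 (SD, n = 4; limma adjusted p = 3.82e-05), and leaving out each array in turn gave 3.64 to 4.13. The single Itga11 probe cleared background on each array in Cy3 and Cy5. The 3 genes outside the alpha chains whose 4 ratios lay nearest to those of Itga11, among all genes tested, were Syt13, of the synaptotagmin family, the small proteoglycan gene Dcn and S100a16, a calcium-binding protein gene. Their root mean square differences from Itga11 over the 4 arrays were 0.27, 0.43 and 0.43 log2 units.

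The 250 bases before the RefSeq start of Itga11 are shown because this chain had the highest ratio, on build GRCm38.p6, at chr9:62677605-62677854 on the plus strand, a window with 68.4% G and C. Motifs were searched on both strands and are printed in capitals: the Smad box CAGAC, the TEAD site GGAATG, the Sp1 box GGGCGG, the Runx site TGTGGT and the CArG box. Among 32851 such windows of RefSeq starts, 42.2%, 12.6%, 32.7%, 14.0% and 1.47% held them. Matches to different motifs were counted separately, overlapping or not. The Itga11 window held none of them.
Itga11: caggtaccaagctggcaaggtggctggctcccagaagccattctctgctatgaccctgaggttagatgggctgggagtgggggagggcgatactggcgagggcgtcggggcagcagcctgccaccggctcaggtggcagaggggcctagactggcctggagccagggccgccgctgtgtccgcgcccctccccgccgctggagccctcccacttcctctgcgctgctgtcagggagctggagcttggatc

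Itga1, whose receptor binds collagen IV of basement membranes and is typical of smooth muscle, had log2 levels of 7.03, 7.52, 7.39 and 7.17 in the channel labelled RapCA and 6.51, 6.33, 6.28 and 6.37 in the channel labelled vector. The channels did not overlap, and the probe was well above background on 4 arrays in the first channel and on 3 in the second. The log2 ratio was 0.90 ± 0.31 (limma adjusted p = 0.00153). This dim probe depended on the scale: the scanner software's ratio was 2.53 and a smaller background offset gave 1.28, both still called. Its other probes were too dim to test, with ratios of 0.23 to 0.52 and of 0.11 to 0.24, all above 0. Itga2, the chain of the other widespread collagen receptor and best known from platelets and epithelium, was not well above background in either channel on any array with either of its 2 probes. On each of the 4 arrays the ratio of Itga11 exceeded that of Itga1, by 2.01 to 3.86 log2 units.

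The laminin chains did not move together. Itga7, the main laminin receptor chain of muscle, had log2 levels of 10.65, 10.30, 10.41 and 10.59 in the channel labelled RapCA against 9.43, 8.43, 8.15 and 8.23 in the channel labelled vector. The channels did not overlap on any array, and the ratio was 1.93 ± 0.52 (limma adjusted p = 0.000261), a 3.80-fold difference. The vector value of replicate 1 was the highest of its channel, and without that array the ratio was 2.16.

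Itga6, a laminin receptor chain of epithelium and endothelium that can pair with beta1 or beta4, went the other way. Its log2 levels were 8.93, 9.35, 9.26 and 9.02 in the channel labelled RapCA and 9.14, 10.28, 10.57 and 10.51 in the channel labelled vector. Only the vector value of replicate 1 fell among those of the other channel, and the ratio on that array was -0.21 against -0.94 to -1.49 on the others. The mean was -0.99 ± 0.57 (limma adjusted p = 0.00636). The call was lost when arrays were centred on their medians (-1.15, adjusted p = 0.0940), and without replicate 1 the ratio was -1.25 (adjusted p = 0.000144).

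Itga3, a laminin receptor chain of basement membrane contacts, was measured by 3 probes. The brightest had log2 levels of 9.82, 9.37, 9.26 and 9.52 in the channel labelled RapCA and 10.07, 9.42, 9.22 and 9.19 in the channel labelled vector, which overlapped. Its ratio was 0.02 ± 0.24 (limma adjusted p = 0.905), with a 95% interval of -0.26 to 0.31. The other probes gave 0.40 ± 0.31 (adjusted p = 0.0450) and 0.17 ± 0.19 (adjusted p = 0.259). The call of the second probe was lost without replicate 2, 3 or 4 (adjusted p = 0.132 to 0.153) and with 5 other settings. The third passed without replicate 1 (adjusted p = 0.0205) and with array weights (adjusted p = 0.00853). The second probe exceeded the brightest on all 4 arrays, by 0.29 to 0.46 log2 units. On each array the ratio of Itga7 exceeded those of Itga3 and Itga6, by 1.47 to 2.22 and by 1.43 to 3.84 log2 units.

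**Figure D2:**
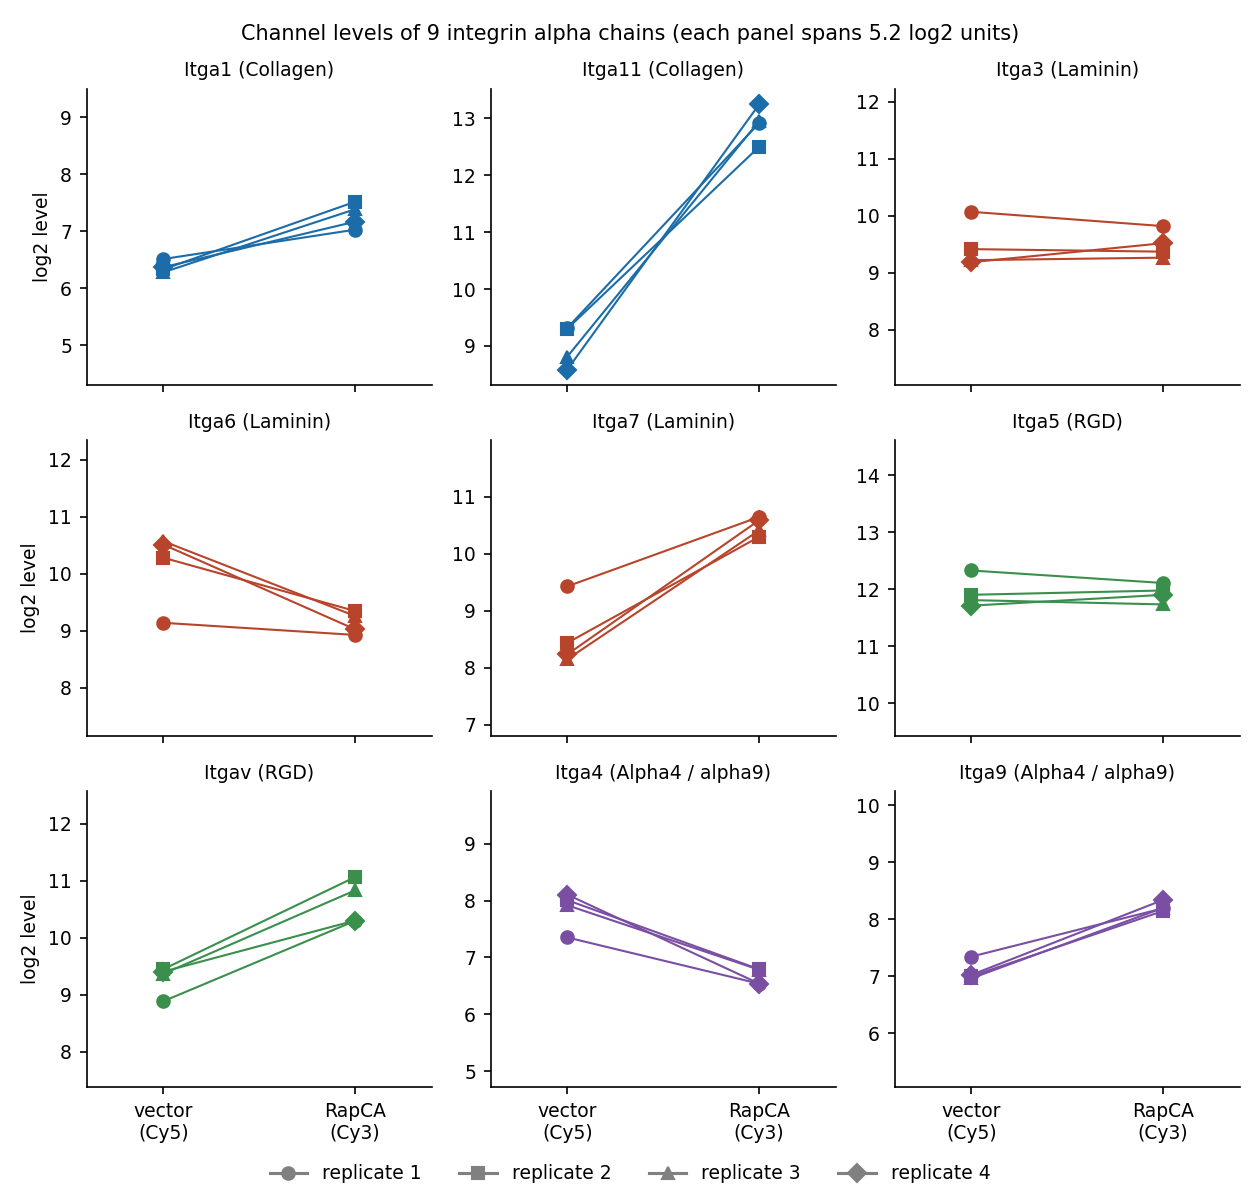
Log2 level (vertical axis, with the same span of log2 units in every panel) of the brightest probe of 9 alpha chains in the channel labelled vector (left, Cy5) and the channel labelled RapCA (right, Cy3); each line joins the channels of 1 array. Lines rise for Itga11, Itga7, Itgav, Itga9 and Itga1, fall for Itga4 and Itga6 and run nearly level for Itga3 and Itga5, and the vector value of replicate 1 stands away from the others for Itga6 and Itga7.

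Of the RGD chains, Itgav was higher in the channel labelled RapCA and Itga5 did not pass. Itgav, which joins several beta chains into receptors for vitronectin, fibronectin and latent TGF-beta, had log2 levels of 10.30, 11.07, 10.83 and 10.30 against 8.89, 9.45, 9.37 and 9.41 in the channel labelled vector. The channels did not overlap, and the ratio was 1.35 ± 0.31 (limma adjusted p = 0.000289), a 2.55-fold difference. A second, dimmer Itgav probe gave 0.31 ± 0.29 (adjusted p = 0.0895), with ratios of 0.62, 0.36, 0.33 and -0.08 on replicates 1 to 4. The probes thus differed by 0.79 to 1.25 log2 units on the same arrays, and their mean was 0.83 (adjusted p = 0.00173). Without replicate 4 the second probe passed (0.44, adjusted p = 0.0354). It also passed with array weights (0.31, adjusted p = 0.00126), where 75.1% of all probes were called.

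Itga5, the chain of the main fibronectin receptor, was bright in both channels. Its log2 levels were 12.11, 11.98, 11.73 and 11.90 in the channel labelled RapCA and 12.33, 11.90, 11.81 and 11.71 in the channel labelled vector. The channels overlapped, and the ratio was -0.01 ± 0.18 (limma adjusted p = 0.964), with a 95% interval of -0.26 to 0.25. Itgav exceeded Itga5 in ratio on every array, by 0.71 to 1.63 log2 units. The windows before both starts are shown because these chains share a ligand motif and differed in ratio. They lie at chr2:83724147-83724396 on the plus strand for Itgav and chr15:103366792-103367041 on the minus strand for Itga5, on GRCm38.p6, with motifs in capitals as for Itga11. The Itga5 window held 2 matches to the Sp1 box and the Itgav window held none of the 5 motifs.
Itgav: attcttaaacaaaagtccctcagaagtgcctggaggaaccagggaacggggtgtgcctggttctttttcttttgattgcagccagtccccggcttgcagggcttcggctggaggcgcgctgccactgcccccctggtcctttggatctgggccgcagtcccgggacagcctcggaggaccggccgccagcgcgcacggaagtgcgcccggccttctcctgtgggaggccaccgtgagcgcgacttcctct
Itga5: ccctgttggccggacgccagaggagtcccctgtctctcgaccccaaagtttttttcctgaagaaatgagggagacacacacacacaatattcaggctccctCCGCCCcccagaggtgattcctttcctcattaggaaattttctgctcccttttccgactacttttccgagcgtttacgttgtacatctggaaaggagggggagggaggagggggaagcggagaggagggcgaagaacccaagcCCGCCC

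The alpha4 and alpha9 chains had ratios of opposite sign. Itga4, whose receptors bind VCAM-1 and fibronectin and are best known from leukocytes, had log2 levels of 6.54, 6.79, 6.78 and 6.54 in the channel labelled RapCA and 7.35, 8.01, 7.92 and 8.10 in the channel labelled vector. The channels did not overlap, and the ratio was -1.18 ± 0.31 (limma adjusted p = 0.000478). The scanner software's ratio for this dim probe was -2.11. Of 2 dimmer Itga4 probes, neither was tested: one was above background on 3 arrays in the channel labelled vector and on 0 in the other, with ratios of 0.15, -0.29, -0.37 and -0.31, and the other was not above background on any array. The genes with the ratios nearest to those of Itga4 were Tdp2, a DNA repair gene, Inhba, which encodes a subunit of activin and inhibin, and Ifi211, of an interferon-inducible family, at 0.06, 0.08 and 0.10 log2 units.

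Itga9, whose receptor binds tenascin-C among other ligands, was higher with both of its probes. The brighter had log2 levels of 8.19, 8.15, 8.20 and 8.34 in the channel labelled RapCA and 7.34, 7.0, 6.96 and 7.02 in the channel labelled vector, without overlap. Its ratio was 1.14 ± 0.20 (limma adjusted p = 0.000267), and that of the second probe was 0.81 ± 0.14 (adjusted p = 0.000737). The scanner software's ratio was 1.87 for the brighter probe. Itga9 exceeded Itga4 in ratio on all 4 arrays, by 1.66 to 2.88 log2 units. The window before the Itga4 start is shown because Itga4 had the lowest ratio of the alpha chains. It lies at chr2:79255176-79255425 on the plus strand of GRCm38.p6 and held 1 match each to the Smad box, the Sp1 box and the Runx site.
Itga4: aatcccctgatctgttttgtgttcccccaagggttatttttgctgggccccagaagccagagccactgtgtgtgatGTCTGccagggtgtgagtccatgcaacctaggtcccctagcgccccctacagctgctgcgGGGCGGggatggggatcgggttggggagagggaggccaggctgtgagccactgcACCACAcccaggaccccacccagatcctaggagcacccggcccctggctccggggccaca

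Among the 13 tested alpha chain probes, the channels did not overlap over the 4 arrays at 7, where 42.6% of all probes did not. The ratio had the same sign on all 4 arrays at 9 of 13, beside 60.0% of all probes. Neither count lies far from what these shares give for 13 probes.

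The beta chains, partners of these alpha chains, also went in both directions. Of 6 tested, 3 were higher and 1 lower, beside 28.9% and 24.9% of all genes. Itgb5 and Itgb3, which pair with alpha v, had log2 ratios of 1.21 ± 0.19 and 1.12 ± 0.28 (limma adjusted p = 0.000190 and 0.000486), beside 1.35 for Itgav. Itgb1, which can pair with each of the 10 alpha chains, had 0.93 ± 0.54 (adjusted p = 0.00675), with 1.62 on replicate 1 and 0.32 on replicate 4, and its second probe gave 0.23 ± 0.44 (adjusted p = 0.297). With median centring neither Itgb3 (adjusted p = 0.0608) nor Itgb1 (adjusted p = 0.233) passed. Itgb7, which can pair with alpha4, had -3.82 ± 0.29 (adjusted p = 8.98e-06), beside -1.18 for Itga4. Itgb4, a partner of alpha6, had 0.16 ± 0.42 (adjusted p = 0.448), beside -0.99 for Itga6, and Itgb2, of leukocyte integrins, had -0.12 ± 0.18 (adjusted p = 0.409). Itgb6 was not above background on any array, and no probe was matched to Itgb8.

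**Figure D3:**
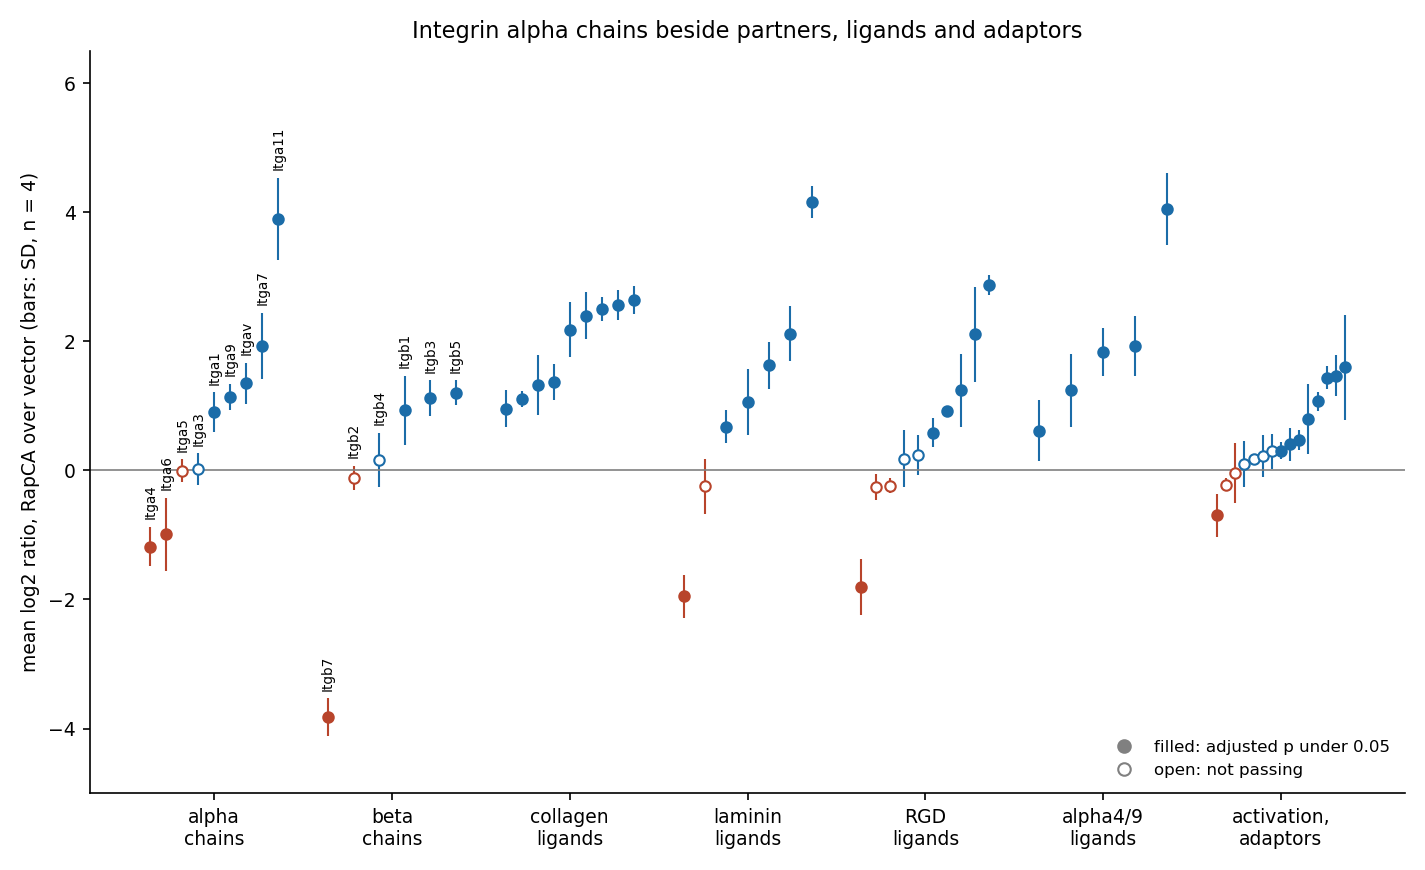
Mean log2 ratio, RapCA-labelled over vector-labelled channel (vertical axis, bars are SDs over 4 arrays) for each tested gene of the alpha chains, beta chains, 4 ligand lists and the activation and adaptor list (horizontal axis); filled points passed an adjusted p of 0.05 and open points did not. All 9 collagen ligand genes lie above 0, while alpha chains, beta chains, laminin and RGD ligands lie on both sides.

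Genes for the ligands were counted beside their receptors, with 28.9% of all genes higher and 24.9% lower as the background. Of 9 collagen genes tested, all had higher levels under the RapCA label, with a median log2 ratio of 2.18; Col6a2, Col5a1 and Col6a1, of collagens VI and V, had 2.64 ± 0.21, 2.56 ± 0.23 and 2.51 ± 0.19. With median centring 5 of them passed, all higher, where 12.5% of all genes were higher. Of 7 laminin chain genes tested, 5 were higher and 1 lower, with Lama4 at 4.16 ± 0.25 and Lamb2 at 2.12 ± 0.43. Of 10 RGD ligand genes, 5 were higher and 1 lower. Tgfb3, whose latent form carries RGD, had 2.88 ± 0.16, Fbln5, of elastic fibres, had 0.92 ± 0.05, and Spp1, which encodes osteopontin, had -1.80 ± 0.44. Without replicate 1, 7 were higher and 3 lower, where 37.1% of all genes were higher and 34.0% lower. Fbln5 passed the brightness filter only through the channel labelled RapCA, and was above background on 3 arrays in the channel labelled vector. With the filter on both channels, 4 of 6 laminin genes were higher and 1 lower, and 4 of 8 RGD ligand genes were higher and 1 lower. There 28.3% of all genes were higher and 25.1% lower. All 5 genes tested of the ligand list drawn up for alpha4 and alpha9 were higher under the RapCA label, while Itga4 was lower and Itga9 higher. Among them were the matrix gene Svep1 at 4.05 ± 0.55, the tenascin gene Tnc at 1.93 ± 0.47 and Vcam1 at 1.84 ± 0.37. The lowest was Emilin1 at 0.62 ± 0.47, with -0.02 on replicate 1. With median centring 4 of the 5 passed, where 12.5% of all genes were higher. Without replicate 2, 3 or 4 it was also 4, where 21.4%, 21.6% and 24.1% of all genes were higher. Fn1 belongs to the last 2 lists, whereas Spp1, at -1.80, was counted in the RGD list only, so the counts depend on how the lists were drawn.

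Of 15 tested genes for integrin activation and adaptors, 8 were higher and 1 lower, with a median log2 ratio of 0.31. Over all genes 28.9% were higher and 24.9% lower, 53.9% called in either direction, beside 60% of this list. Pxn, which encodes the focal adhesion adaptor paxillin, had 1.44 ± 0.18, the talin gene Tln2 had 1.47 ± 0.32 and Ilk, the integrin-linked kinase gene, had 1.07 ± 0.14 (limma adjusted p = 9.23e-05, 0.000210 and 0.000229). The 1 lower gene was Apbb1ip, at -0.70 ± 0.33 (adjusted p = 0.00554) and, with its second probe, -0.78 ± 0.18 (adjusted p = 0.0011). With median centring 3 were called, all higher, where 12.5% of all genes were higher, and the median was 0.02.

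Markers of several cell types moved with the channels. Their counts are to be read beside 28.9% of all genes higher and 24.9% lower. Among 7 fibroblast markers listed, 5 were tested and 4 rose in Cy3 relative to Cy5, Dcn, Dpt, Pi16 and Scara5, at log2 ratios of 3.88, 2.76, 2.29 and 2.28, and their summed linear level was 43468 to 53531 in the channel labelled RapCA and 5799 to 8464 in the channel labelled vector; Lum was not above background on any array. Of 6 pericyte markers, 3 of 4 tested (Notch3, Pdgfrb and Cspg4) were higher and 1 lower, with sums of 27644 to 31703 and 9081 to 12892, and Abcc9 and Rgs5 were not above background on any array. Of 8 smooth muscle markers, 3 of 6 tested (Tagln, Lmod1 and Acta2) were higher and none lower, while Myh11, Cnn1 and Smtn did not pass. The median log2 ratio of the 6 was 0.34, with sums of 310900 to 341105 and 144021 to 187240. A sum of linear levels weighs the brightest probes most. Desmin and myocardin transcripts were not above background, so these 2 markers of the labelled cell type were not seen. Of 8 endothelial markers, Pecam1, Cdh5, Tie1 and Emcn were not above background, and of 3 tested Tek was higher and Vwf and Kdr lower, with sums of 444 to 454 and 662 to 832. Tek passed the brightness filter only through the channel labelled RapCA, and was above background on 2 arrays in the channel labelled vector. Of 8 leukocyte markers, 3 (Fcer1g, Cd14 and Csf1r) were tested and none passed, with sums of 621 to 799 and 568 to 834, and Ptprc, Adgre1 and Tyrobp were not above background. Of 5 epithelial markers Krt8 was tested and was lower, with levels of 75 to 83 and 152 to 169. It was above background on 4 arrays in the channel labelled vector and on 0 in the other, so its difference is a bound, at least 2.05-fold. Cdh1, Cldn4 and Epcam were not above background. The part of cell makeup in the alpha chain ratios was not tested.

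The alpha chains that were called kept their sign under every alternative run. Itga11, Itga7, Itgav, Itga9 and Itga4 were called in the same direction under all 15, Itga1 under all 14 that gave it a value, and Itga6 under 14 of 15, with median centring as the exception. Itga3 (brightest probe) and Itga5 were called under none of 15.

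**Figure D4:**
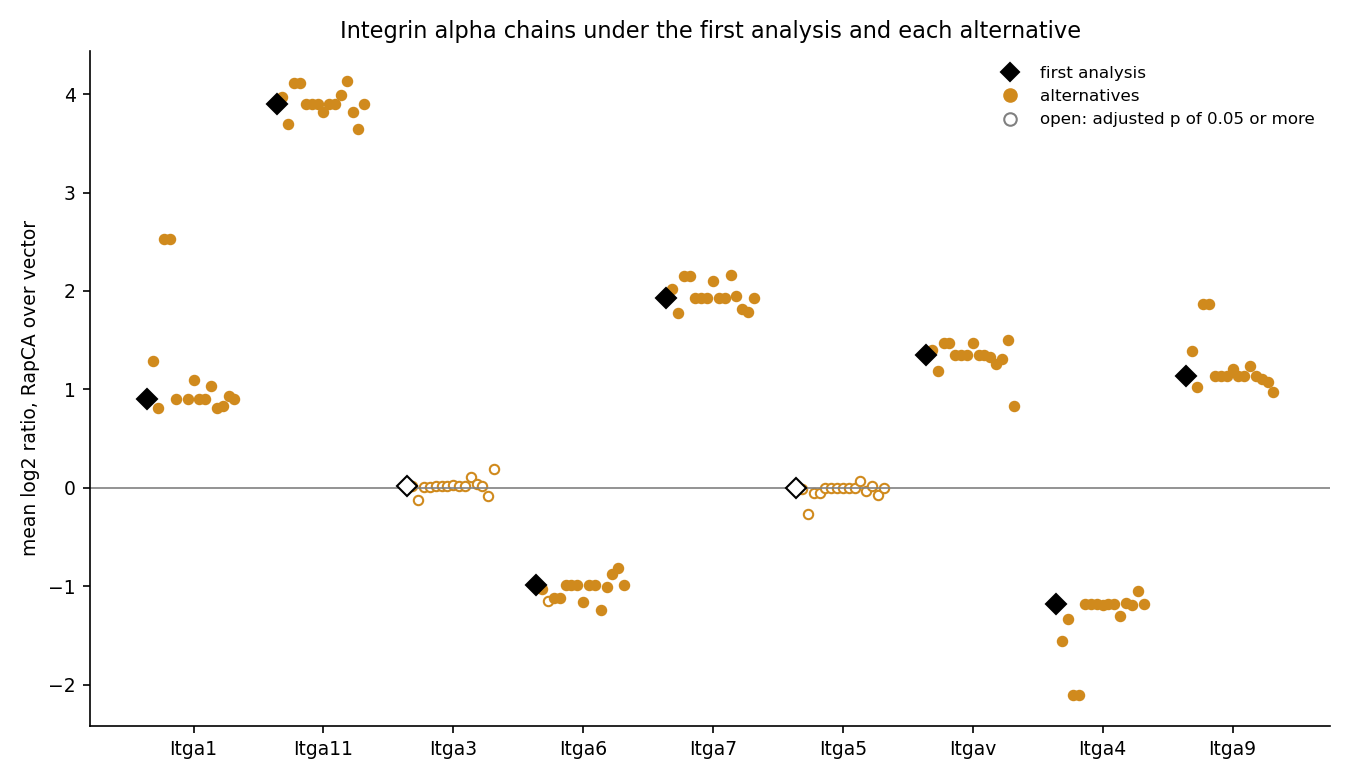
Mean log2 ratio (vertical axis) of the brightest probe of 9 alpha chains (horizontal axis) in the first analysis (black diamonds) and under each alternative (orange points, which include leaving out each array); open symbols did not pass an adjusted p of 0.05. The highest Itga1 and Itga9 and the lowest Itga4 points, at 2.53, 1.87 and -2.11, come from the scanner software's ratios and the series table made from them.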

How the data were processed

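Both kinds of cells gave total RNA, 1 in Cy5 and 1 in Cy3 on each of 4 arrays of 1 slide, per the labels and file headers, so slide could not be examined as a batch. Spots were read with Agilent Feature Extraction 10.7.3.1 per the file headers (the submitters' processing notes give 10.9). The intensity values deposited in the scanner files are median pixel brightness of spots and local background, not normalized. The log10 values deposited there, and again in a table of the series, are Cy5 to Cy3 ratios that Feature Extraction had corrected and dye-normalized, per the file headers; the tables differed by at most 5e-05 over 40929 probes with 1 spot.

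Background correction here used normexp (offset 50), which compresses ratios of dim probes, and log2 ratios of Cy3 over Cy5 were normalized by loess within arrays (limma 3.58.1, R 4.3.3). Outlier spots were left out (94 to 137 per array), spots of a probe were averaged and no spot was saturated. Tested were 23496 of 41174 probes, those with Cy3, Cy5 or both well above background on each of the 4 arrays, and with at least 3 values. The mean ratio was tested against 0 with lmFit and eBayes and adjusted by Benjamini-Hochberg over all probes. The precision is limited by the number of arrays. Levels are log2 signals per channel after loess and quantile normalization of the average signal (Aquantile), and levels of different probes are not compared. Accessions were matched to symbols in a RefSeq table, for 64.8% of probes. Its build differs from the mm9 design of the arrays, so no probe was placed on a gene and splice forms were not told apart. Promoter windows came from RefSeq (GRCm38.p6) and were listed for 8 of the 10 genes.

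The members, lists and tests were chosen with earlier results of these data known. Named were all alpha and beta chains, Rap1a, the 3 genes of each other list with the smallest p (1 laminin chain gene is not reported here), and the 3 genes nearest in ratio to the alpha chains with the largest rise and fall; markers not above background, Pi16, Itgae, Itgam, Itgax and Fn1 were named besides, after their values were seen. The fit was tested on simulated arrays. The alternatives were a smaller offset (16), median centring, ratios as the scanner software or the series table gives them, no filter or a filter on both channels, outlier spots kept, array weights, another variance model, separate channels with the array as a random block, each array left out, and the mean of a gene's probes. Figures used Python 3.11.15, pandas 2.3.3 and matplotlib 3.10.9.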

Additional observations from a re-analysis of the deposited data

Results flagged for a closer look

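In the channel labelled vector, replicate 1 lay far from the other 3 arrays at 3 of the 13 tested alpha chain probes. The third Itga3 probe had a log2 level of 7.45 there against 6.94 to 7.0, the brighter Itga9 probe had 7.34 against 6.96 to 7.02, and the brighter Itgav probe had 8.89 against 9.37 to 9.45. In each case the gap to the nearest other array, as a share of the whole range, exceeded Dixon's 95% critical value for 4 samples, which chance passes in about 1 in 20 sets, and 39 sets of ratios and levels were looked at. No set in the channel labelled RapCA and no set of ratios was marked.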

How the results depend on the processing

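With median centring in place of loess the median of all probes moved from 0.01 to -0.14, and 6548 probes were called in place of 11654 (2625 higher in place of 6208, so 40.1% of calls were higher in place of 53.3%) and 4019 genes in place of 6671. There the alpha chains had 5 higher and 1 lower, with Itga6 at -1.15 (adjusted p = 0.0940) and Itga3 at -0.12, against 0.02. Counts of called genes under median centring were 1 of the other alpha chains (2 before), 2 beta chains (4), 5 collagen genes (9) and 3 activation and adaptor genes (9). With array weights 17636 probes were called, 8605 of them lower (5446 before), 10 RGD ligand genes passed (6 before), and Itga5 had a ratio of 0.0023. Leaving out each array gave 3525 to 7664 probes called lower, 6 to 10 RGD ligand genes, and ratios of -0.084 to 0.11 for Itga3 and -0.073 to 0.064 for Itga5; the RGD count was highest without replicate 1, and the lower probes fewest without replicate 3 and, at 3625, without replicate 2. The cause was not tested. With the filter on both channels Itga1 gave no value. Each array pairs the channels, and treating them as separate with the array as a random block moved no alpha chain call but that of the second Itga3 probe (adjusted p = 0.0838). The signal over background limits Itga2 and the dim probes of Itga1 and Itga4.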

Other observations

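Alpha chain genes outside the 10 were also measured. Itga8, an RGD-binding chain of smooth muscle, had log2 ratios averaging 0.55 ± 0.19 (SD over n = 4 arrays; limma adjusted p = 0.00563) with its brightest probe and 0.66 ± 0.23 with the second (adjusted p = 0.00339), above 0 on all 4 arrays with both. Itga2b, the platelet chain that pairs with beta3, had 1.47 ± 0.40 (adjusted p = 0.000373), with ratios of 0.92, 1.41, 1.77 and 1.78 on replicates 1 to 4. Itgal and Itgae, chains of lymphocytes, had -0.22 ± 0.23 and 0.13 ± 0.13 (adjusted p = 0.161 and 0.336). Itgam and Itgax, chains of myeloid cells, were not above background on any array. No probe was matched to Itga10 or Itgad.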
